A study of Mus musculus with 18 samples.

Results

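The ligands and receptors described here were 61 of the 30905 genes in the count matrices. They were taken by symbol: the semaphorins Sema3 to Sema7, the plexins Plxna to Plxnd, the Eph receptors (Epha, Ephb), the ephrins (Efna, Efnb), Slit1 to Slit3 and Robo1 to Robo4. On the ligand side stood 31 genes, 20 semaphorins, 5 A-type ephrins, 3 B-type ephrins and 3 Slits. On the receptor side stood 27 genes, 9 plexins, 9 EphA receptors, 5 EphB receptors and 4 Robo receptors. The symbol rule also took 3 antisense transcripts, Plxna4os1, Plxna4os2 and Plxna4os3, which lie within the Plxna4 gene on the other strand and encode neither side. All mice were Kun Ming, an outbred stock, and were harvested at 8 weeks of age. Germ-free (GF) mice lived without microbes in isolators, specific pathogen-free (SPF) mice carried a microbiota, and colonized germ-free (CGF) mice were GF mice that shared an isolator with SPF mice for 4 weeks from the age of 4 weeks. Each group had 3 mice, and nuclei of the hippocampus (Hip) and the prefrontal cortex (PFC) of the same animals gave 18 libraries. CGF mice were thus without microbes up to the start of co-housing.

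Semaphorins signal through plexins, ephrins through Eph receptors, and Slits through Robo receptors. In development these pairs steer growing axons and migrating cells, mostly by collapse of the growth cone, and in the adult brain many of them remain at synapses, on glia and on vessels. Class 3 semaphorins and Slits are secreted, most other semaphorins and the B-type ephrins span the membrane, and A-type ephrins are held in it by a lipid anchor.

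Expression was read as UMIs, unique molecular identifiers that count RNA molecules, and 138000 nuclei passed the filters. A nucleus was given a class from 170 marker genes, none of them a member, and the UMIs of each class were summed per library, so that the mouse was the replicate. Library pairs shared 6 to 29 nucleus barcodes (median 16 over 153 pairs). Kept UMIs ran from 48289446 to 63063847 per Hip library. PFC libraries of GF mice held 58877661 to 71320063, those of SPF mice 20070604 to 26168411 and those of CGF mice 21886826 to 26005692. Mitochondrial genes took 0.359 to 0.594% of PFC UMIs in the GF group, and 1.66 to 3.22% (SPF) and 1.28 to 2.24% (CGF) in the others. The Hip values were 0.645 to 1.10%, 0.128 to 0.471% and 0.077 to 0.218%. Nuclei of GF Hip libraries held medians of 4678 to 5905 UMIs, against 6173 to 7087 (SPF) and 5460 to 7579 (CGF). In both regions the GF libraries thus stood apart, in mitochondrial share from both groups and in UMIs per nucleus from both in the PFC and from SPF in Hip, and the GF group and this kind of library cannot be told apart in any result between GF and another group. Among the check markers kept out of the gate, some were highest in a class other than their own: Ptprz1 in astrocytes (both regions), and in the PFC Chn1 in mural cells and Olig1 in oligodendrocytes. Glial nuclei also carried neuronal RNA: Slc17a7, the vesicular glutamate transporter and a gate marker of excitatory neurons, stood at 211 counts per 1000000 UMIs of the class (CPM) in Hip excitatory neurons, 68.2 in interneurons and 138 to 276 in the 4 glial classes. In the PFC it stood at 350 CPM in excitatory neurons and 186 to 298 CPM in glia. A glial level of a gene that neurons express can therefore include neuronal RNA, and its share was not tested. Free RNA, doublets and misgated nuclei were not told apart.

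Among the 6 large classes, the EphA receptors made the largest summed level in neurons. Over the 9 mice the 9 EphA genes together ran from 4705 to 6994 CPM in Hip excitatory neurons (median 6346) and from 1489 to 2488 CPM in PFC excitatory neurons (median 1708). The semaphorins were the leading family of OPC, the oligodendrocyte precursor cells, with a summed level of 2187 to 3364 CPM in Hip and 1980 to 2503 CPM in PFC. Slits were highest in excitatory neurons in both regions (median 2251 CPM in Hip and 889 CPM in PFC, against medians of 372 to 542 and 177 to 414 in the other 5 classes). EphB receptors had their highest sums in oligodendrocytes (median 682 CPM in Hip and 837 CPM in PFC). The median member spans 29.0 kb of genome against 12.6 kb for all genes. Whether reads in introns were counted is not given in the sources used here, and if they were, these sums also depend on gene length.

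**Figure D1:**
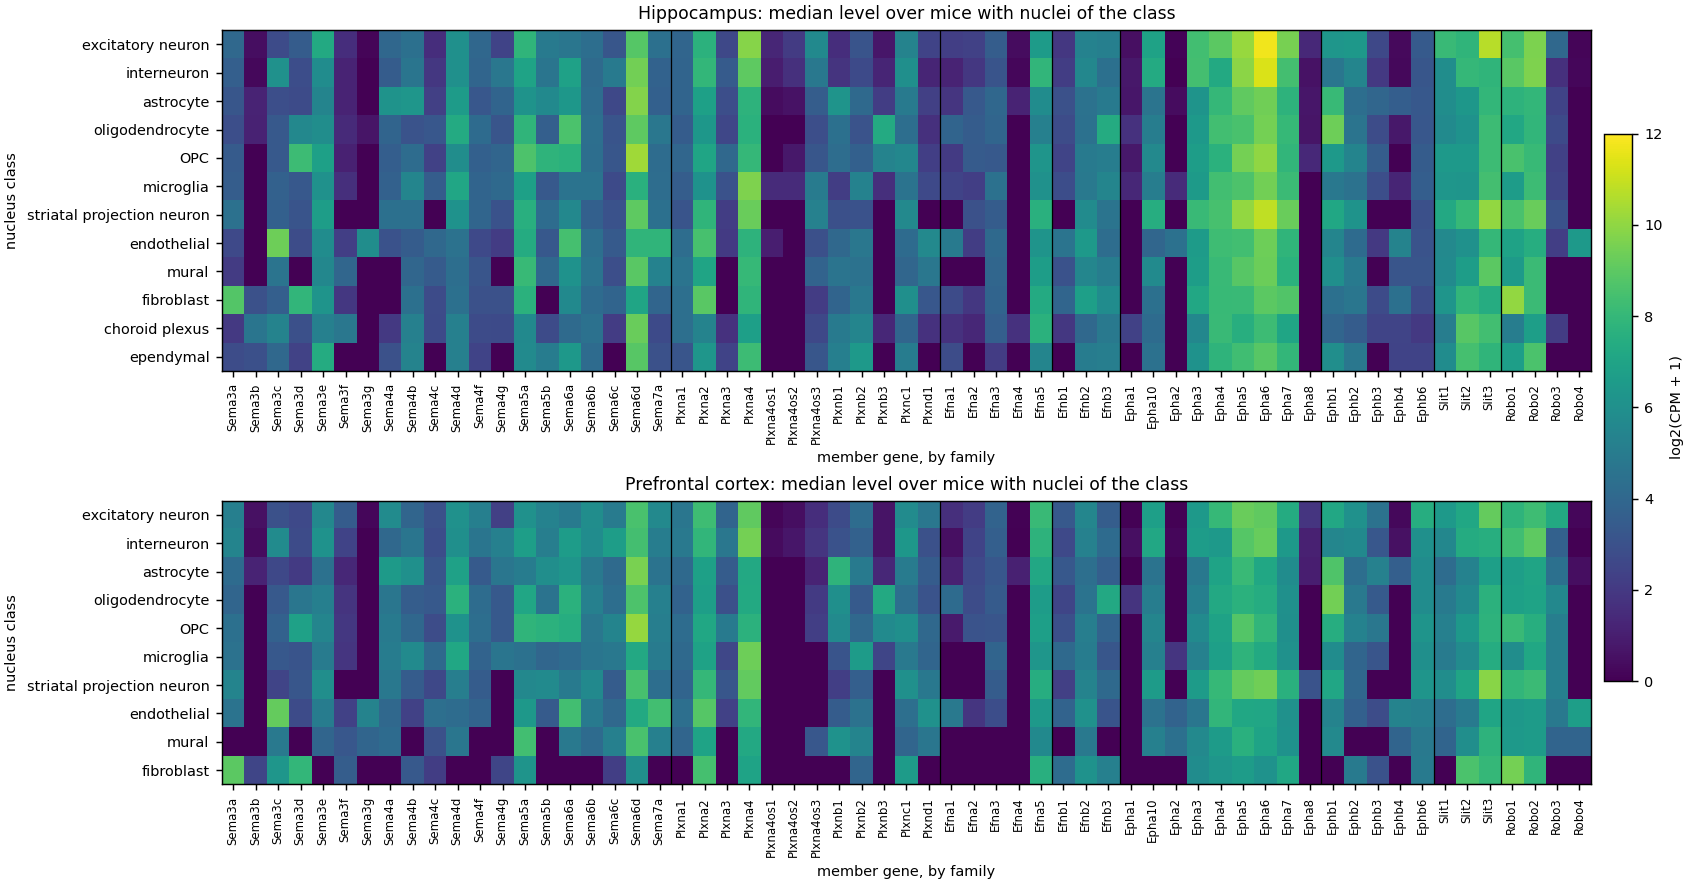
Median level of the 61 members over the mice with nuclei of the class (9, or 7 for the choroid plexus), as log2(CPM + 1), with the genes on the x axis ordered by family and the classes on the y axis. The brightest block is that of the EphA receptors in Hip neurons, and Plxnb3, Sema3d and Robo4 each show bright cells in 1 or a few classes.

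Each class was compared with the mean of the other 5 classes by edgeR's quasi-likelihood test with Benjamini-Hochberg adjustment, with the mouse as a term. In Hip 50 of 51 tested members were above the others in some class, beside 95.4% of all genes, and in PFC 48 of 48, beside 89.7%, so that having such a class was common to most genes. By class, 30 of 51 members were above in Hip excitatory neurons (all genes 36.2%) and 32 of 48 in PFC excitatory neurons (38.7%). In astrocytes 11 of 51 (33.2%) and 10 of 48 (27.2%) were above, in oligodendrocytes 14 of 51 (33.2%) and 11 of 48 (20.3%), in OPC 16 of 51 (20.4%) and 16 of 48 (16.1%), in microglia 7 of 51 (31.3%) and 8 of 48 (24.8%), and in interneurons 23 of 51 (35.2%) and 27 of 48 (32.8%). Members below the other classes in Hip were 13 of 51 in excitatory neurons (all genes 44.4%), 24 in interneurons (42.6%), 31 in microglia (33.6%), 28 in oligodendrocytes (34.7%), 28 in astrocytes (33.6%) and 11 in OPC (20%). These shares were not tested against each other.

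In excitatory neurons the members farthest above the other classes in both regions were a pair of Slit ligands and 1 Robo receptor. Slit3 stood at 1592 ± 296 CPM in Hip (SD, n = 9 mice) and 630 ± 112 CPM in PFC, 2.84 ± 0.08 and 2.22 ± 0.08 above the mean of the other classes (log2 ± SE, adjusted p = 4.91e-35 and 2.16e-32, edgeR). Slit1 stood at 302 ± 47.0 and 85.3 ± 8.92 CPM (2.39 ± 0.06 and 1.76 ± 0.09). Robo3, the divergent Robo receptor best known from axons that cross the midline, stood at 16.7 ± 3.34 CPM in Hip and 131 ± 82.5 CPM in PFC (2.27 ± 0.11 and 2.38 ± 0.07), and its wide PFC spread lay between the groups of mice. In interneurons the class 3 semaphorin Sema3c was at 68.6 ± 17.2 and 53.6 ± 16.4 CPM (3.17 ± 0.12 and 2.70 ± 0.11), the transmembrane semaphorin Sema6c at 28.7 ± 4.38 and 86.3 ± 51.9 CPM (2.23 ± 0.08 and 2.00 ± 0.09), and Epha10, an Eph receptor without kinase activity, at 160 ± 16.8 and 149 ± 23.3 CPM (2.07 ± 0.06 and 1.80 ± 0.10). These values show neuronal members of both sides, secreted ligands in excitatory neurons and receptors in both neuron classes.

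Astrocytes stood out for Plxnb1, the receptor of Sema4d, at 74.8 ± 13.3 CPM in Hip and 189 ± 98.2 CPM in PFC, 3.58 ± 0.10 and 3.69 ± 0.09 above the other classes on the log2 scale (adjusted p = 1.48e-36 and 1.04e-40, edgeR). Both Sema4a (72.1 ± 11.6 and 96.3 ± 26.8 CPM) and Sema4b (79.9 ± 17.5 and 74.9 ± 22.7 CPM), membrane-bound class 4 ligands, were above the other classes in astrocytes, by 2.55 and 1.58 and by 1.97 and 2.10 (log2, Hip and PFC). Oligodendrocytes were marked by Plxnb3, at 160 ± 30.4 CPM in Hip and 167 ± 32.6 CPM in PFC, 5.51 ± 0.10 and 6.06 ± 0.11 above the rest (log2, adjusted p = 8.96e-45 and 6.94e-47, edgeR). OPC also held Plxnb3, at 46.6 ± 15.8 and 52.3 ± 12.8 CPM. Oligodendrocytes were further above the rest for the ephrin Efnb3 (187 ± 41.1 and 148 ± 38.0 CPM, log2 differences 2.51 and 3.41) and for the receptor Ephb1 (627 ± 126 and 683 ± 138 CPM, 2.98 and 2.53).

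In OPC the secreted ligand Sema3d reached 291 ± 48.1 CPM in Hip and 148 ± 69.9 CPM in PFC, 4.75 ± 0.09 and 4.64 ± 0.14 above the other classes (log2, adjusted p = 5.58e-44 and 2.32e-35, edgeR). The thrombospondin-repeat ligand Sema5b was at 229 ± 23.7 and 225 ± 50.8 CPM there, 3.41 and 2.76 above. Outside the 6 classes, fibroblast-gated nuclei also held Sema3d, at means of 290 CPM in Hip and 217 CPM in PFC. Single libraries held as few as 7 (Hip) and 1 (PFC) of these nuclei. Microglia held fewer members above the rest. Plxnb2 was above by 1.80 and 2.05 (log2, 42.7 ± 13.2 and 87.7 ± 37.6 CPM) and Sema4c, at a low level, by 1.26 and 0.78 (11.3 ± 6.46 and 15.5 ± 9.15 CPM, adjusted p = 0.0325 in PFC by edgeR). Plxna4, which binds Sema3a together with neuropilin, was at 837 ± 94.9 and 674 ± 124 CPM in microglia, 0.95 ± 0.06 and 1.01 ± 0.08 above the mean of the other classes. Microglia were not its highest class, since Hip excitatory neurons held 870 CPM and PFC interneurons 677 CPM. Sema4c averaged 17.3 ± 22.3 CPM in PFC oligodendrocytes, and with that spread the order of oligodendrocytes and microglia in the PFC cannot be told.

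The stretches just upstream of 3 genes with a narrow range of classes are shown because Plxnb3 and Sema3d are the plexin and the ligand with the largest class differences and Robo4 is read almost wholly in endothelial nuclei. They are the bases of RefSeq promoter windows before the annotated start (build GRCm38.p6, + strand), and 51 of the 61 members have an entry. Capitals mark ACAAAG or its other-strand form CTTTGT, the core letters bound by SOX-type factors, which oligodendrocyte lineage cells use. In Robo4 the search was for GGAA or TTCC, the core bound by ETS-type factors, which endothelial cells use.

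Plxnb3, chrX:73756853-73757089: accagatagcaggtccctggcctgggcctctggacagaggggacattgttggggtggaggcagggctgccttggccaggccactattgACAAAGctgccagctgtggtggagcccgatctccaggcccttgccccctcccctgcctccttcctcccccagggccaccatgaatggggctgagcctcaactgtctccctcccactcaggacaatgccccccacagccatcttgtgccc

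Sema3d, chr5:12382916-12383165: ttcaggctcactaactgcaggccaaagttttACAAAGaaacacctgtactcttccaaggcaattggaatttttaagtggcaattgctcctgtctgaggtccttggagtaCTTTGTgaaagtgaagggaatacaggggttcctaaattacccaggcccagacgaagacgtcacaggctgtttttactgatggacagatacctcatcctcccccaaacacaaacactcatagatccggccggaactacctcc

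Robo4, chr9:37401722-37401896: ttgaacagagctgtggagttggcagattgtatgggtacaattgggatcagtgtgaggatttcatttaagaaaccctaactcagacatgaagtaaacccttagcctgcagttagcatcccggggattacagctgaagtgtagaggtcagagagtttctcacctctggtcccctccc

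The 237 bases before Plxnb3 held ACAAAG 1 time, and 15.8% of 32851 promoters held it within the same number of bases. The 250 bases before Sema3d held it 2 times, 1 on each strand, beside 16.5% of promoters with at least 1 match. The 175 bases before Robo4 held no GGAA on either strand, while 85.9% of promoters did. Over the members with an entry, 6 held ACAAAG and 46 held GGAA within the 250 bases upstream. For GGAA the share of all promoters at that length is not given, so the 85.9% is no match for this count. A match of so few letters describes the window and shows no binding.

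Levels of different genes were also read per kb of gene span, a scale that makes them comparable only if intronic reads were counted. The order here is among the 6 large classes, by the mean over all 9 mice, and leaves out the smaller classes, and by it short genes came forward. Efnb3 led the B-type ephrins with 30.6 CPM per kb in Hip oligodendrocytes. Plxnb3 led the plexins with 10.8 CPM per kb in PFC oligodendrocytes, and Ephb6, a kinase-dead EphB receptor of 15.0 kb, led the EphB receptors with 10.1 CPM per kb in PFC excitatory neurons. Robo3 led the Robo receptors with 7.47 CPM per kb in PFC excitatory neurons and Sema6c led the semaphorins with 6.36 CPM per kb in PFC interneurons. Epha7 led the EphA receptors (4.59 CPM per kb), Slit3 the Slits (2.71 CPM per kb), both in Hip excitatory neurons, Efna3 the A-type ephrins (2.22 CPM per kb in Hip microglia), and Sema3d the class 3 semaphorins (1.42 CPM per kb in Hip OPC). Epha6, with the highest raw level, spans 952 kb. Epha10 in Hip interneurons, at 4.33 ± 0.46 CPM per kb, lay within the SD of Epha7 (0.86). The means of Robo3, Ephb6 and Sema6c in the PFC, and of Epha7 and Slit3 in Hip, pool groups that differed, as given below.

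Smaller classes were read without a test, since most held few nuclei per mouse. Of all classes, endothelial nuclei (1024 in Hip and 1223 in PFC) were the class of the highest mean level for 10 members in Hip and 11 in PFC. Robo4, the vascular Robo receptor, ran from 42.4 to 125 CPM over the 9 mice in Hip endothelial nuclei (median 86.4) and from 45.3 to 179 CPM in PFC (median 107). The endothelial ligands Sema3g (median 58.9 and 39.9 CPM) and Sema3c (median 644 and 578 CPM) were high there as well, and so was Sema7a, a lipid-anchored semaphorin (median 230 and 330 CPM). The receptors Plxnd1, which binds Sema3e on vessels, and Ephb4, the venous Eph receptor, had medians of 48.9 and 40.5 CPM in Hip endothelial nuclei. Fibroblast-gated nuclei of the Hip (458, from 7 to 103 per library) held Sema3a, the classical repellent of sensory axons, at a median of 439 CPM (0 to 543) and Robo1 at a median of 1063 CPM. In the PFC the GF libraries held 78 to 128 such nuclei, with Sema3a at 383 to 395 CPM, and the SPF and CGF libraries held 1 to 14, too few to read a level. Choroid plexus nuclei (765) were found in 7 of the 9 Hip libraries, and Slit2 was at 106 to 837 CPM there (median 479 CPM). The members of this paragraph were chosen after their values were seen.

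**Figure D2:**
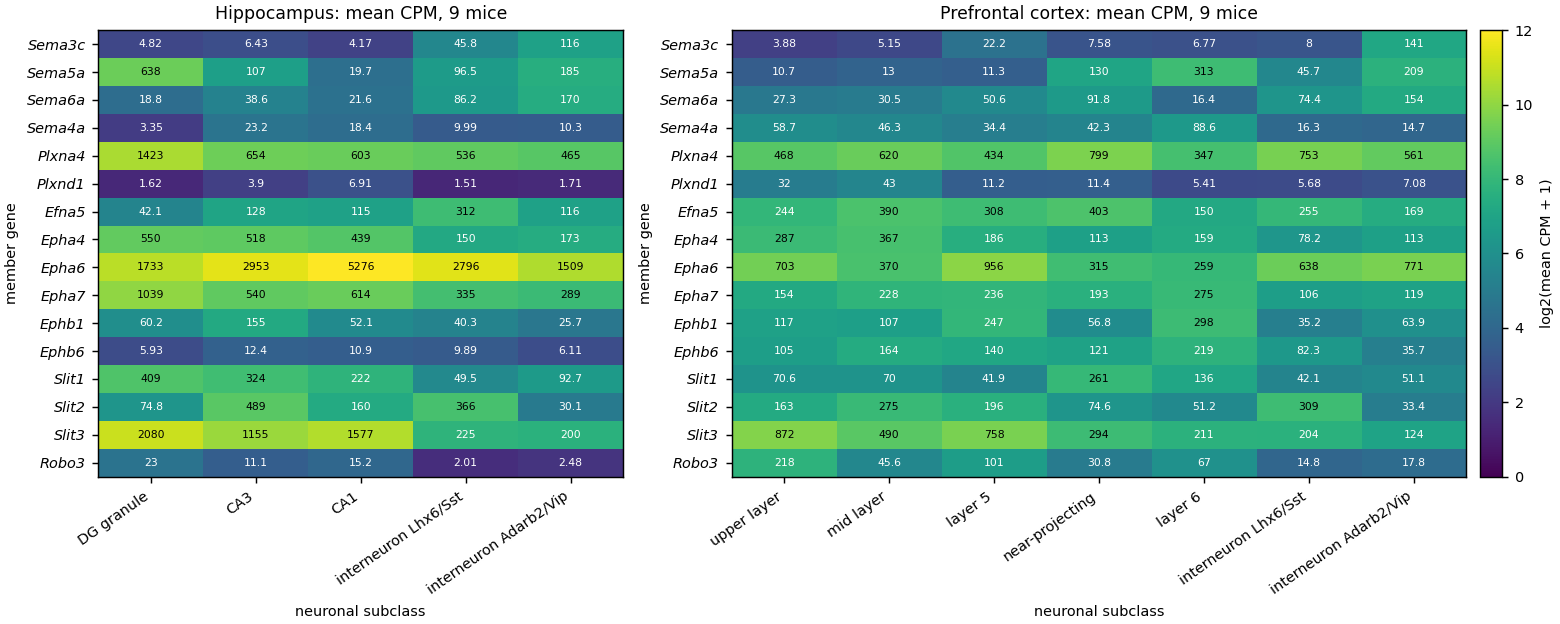
Mean CPM over 9 mice (number and colour, log2(mean CPM + 1)) of 16 members in the neuron subclasses of Hip (left) and PFC (right), with genes in rows and subclasses in columns. In Hip Sema5a and Plxna4 are highest in dentate granule neurons, Epha6 in CA1 and Slit2 in CA3, and in PFC Robo3 is highest in upper layers.

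Within neurons, the members named here differed in level between the subclasses of a region. How many of all members did so is not given, and these differences were not tested. Subclasses were gated by their own markers, none a member, and the following were chosen after their values were seen. In Hip, dentate gyrus (DG) granule neurons led all 5 subclasses for Sema5a in 9 of 9 mice (638 ± 85.1 CPM, next 185 CPM in Adarb2/Vip interneurons, 19.7 CPM in CA1). They also led in 9 of 9 mice for the receptors Plxna4 (1423 ± 173 CPM against 654 in CA3) and Epha7 (1039 ± 158 against 614 in CA1), and for Slit3 (2080 ± 355 against 1577 in CA1). CA1 led for Epha6 in 9 of 9 mice (5276 ± 1087 CPM, next 2953 in CA3). CA3 led for Ephb1 in 9 of 9 mice (155 ± 30.4 CPM against 60.2 in DG) and for Slit2 in 8 of 9 (489 ± 102 against 366 in Lhx6/Sst interneurons). The interneuron types differed as well. The A-type ephrin Efna5 was highest in Lhx6/Sst interneurons in 9 of 9 mice (312 ± 59.4 CPM against 128 in CA3). Sema3c was highest in Adarb2/Vip interneurons in 9 of 9 mice (116 ± 23.7 against 45.8 CPM in Lhx6/Sst).

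In the PFC, Sema3c was again highest in Adarb2/Vip interneurons in 9 of 9 mice (141 ± 56.4 CPM, next 22.2 in layer 5). Robo3 was highest in upper layer neurons in 9 of 9 (218 ± 133 CPM against 101 in layer 5), and Slit1 in near-projecting neurons in 9 of 9 (261 ± 41.9 against 136 in layer 6). Layer 6 neurons led for Ephb6 (219 ± 142 CPM, 9 of 9 mice), Sema4a (88.6 ± 19.3 CPM, 9 of 9) and Sema5a (313 ± 62.0 CPM, 8 of 9, against 10.7 CPM in upper layers). The middle layers led for Epha4 (367 ± 20.1 CPM against 287 in upper layers) and for Plxnd1 (43.0 ± 9.55 against 32 CPM), each in 9 of 9 mice. Epha6, the CA1 receptor of the Hip, was highest in PFC layer 5 in 7 of 9 mice (956 ± 295 CPM against 771 in Adarb2/Vip interneurons), and the gap between these neighbours was smaller than the SD.

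Genes named in the comparisons between groups are given here with their place in the genome (GRCm38, GENCODE vM21 spans). A cluster of long receptor genes lies on chromosome 16: Epha6 (chr16:59653483-60605531), Epha3 (chr16:63543534-63864175), Robo1 (chr16:72308306-73046095) and Robo2 (chr16:73891839-74411825). Epha4 lies at chr1:77367185-77515088, Epha7 at chr4:28813131-28967499 and Slit2 at chr5:47983138-48307733. Of the short genes, Robo3 (chr9:37415669-37433246) is the neighbour of Robo4 (chr9:37401897-37415115) on the opposite strand, Ephb6 lies at chr6:41605482-41620509, Sema6c at chr3:95160457-95174024 and Plxnb1 at chr9:109095389-109119917. Plxna4 covers chr6:32144268-32588192 on the minus strand, and Plxna4os1, Plxna4os2 and Plxna4os3 lie inside it on the plus strand.

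The comparison of GF with SPF mice asked what the absence of a microbiota goes with. In the Hip, the receptors Epha3, Epha4, Epha7 and Robo1 were lower in GF than in SPF mice in all 6 classes, and Epha6, Robo2, Sema6a and Sema6d in 5 of 6, while the antisense transcript Plxna4os3 was higher in 5. Each pair of a member and a class was tested by edgeR's quasi-likelihood test on the sums of 3 mice a group, with Benjamini-Hochberg adjustment over all genes of the class. Of 284 tested pairs, 91 were lower in GF mice and 11 higher, beside 14.3% lower and 18.8% higher among all gene-class pairs. With the trend of fold change with gene length and GC content removed, 36 were lower and 5 higher, and without SPF mouse 30 5 were higher. The median log2 fold change of the pairs was -0.31. By side, 52 of 124 receptor pairs fell and 0 rose, 39 of 151 ligand pairs fell and 4 rose, and 7 of the 9 antisense pairs rose. At an unadjusted p under 0.05, 3 receptor pairs were higher in GF mice, and DESeq2 called 0. All 61 members together made up 0.856 to 0.986% of the UMIs of GF Hip libraries, against 1.09 to 1.20% in SPF and 1.13 to 1.19% in CGF libraries.

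**Figure D3:**
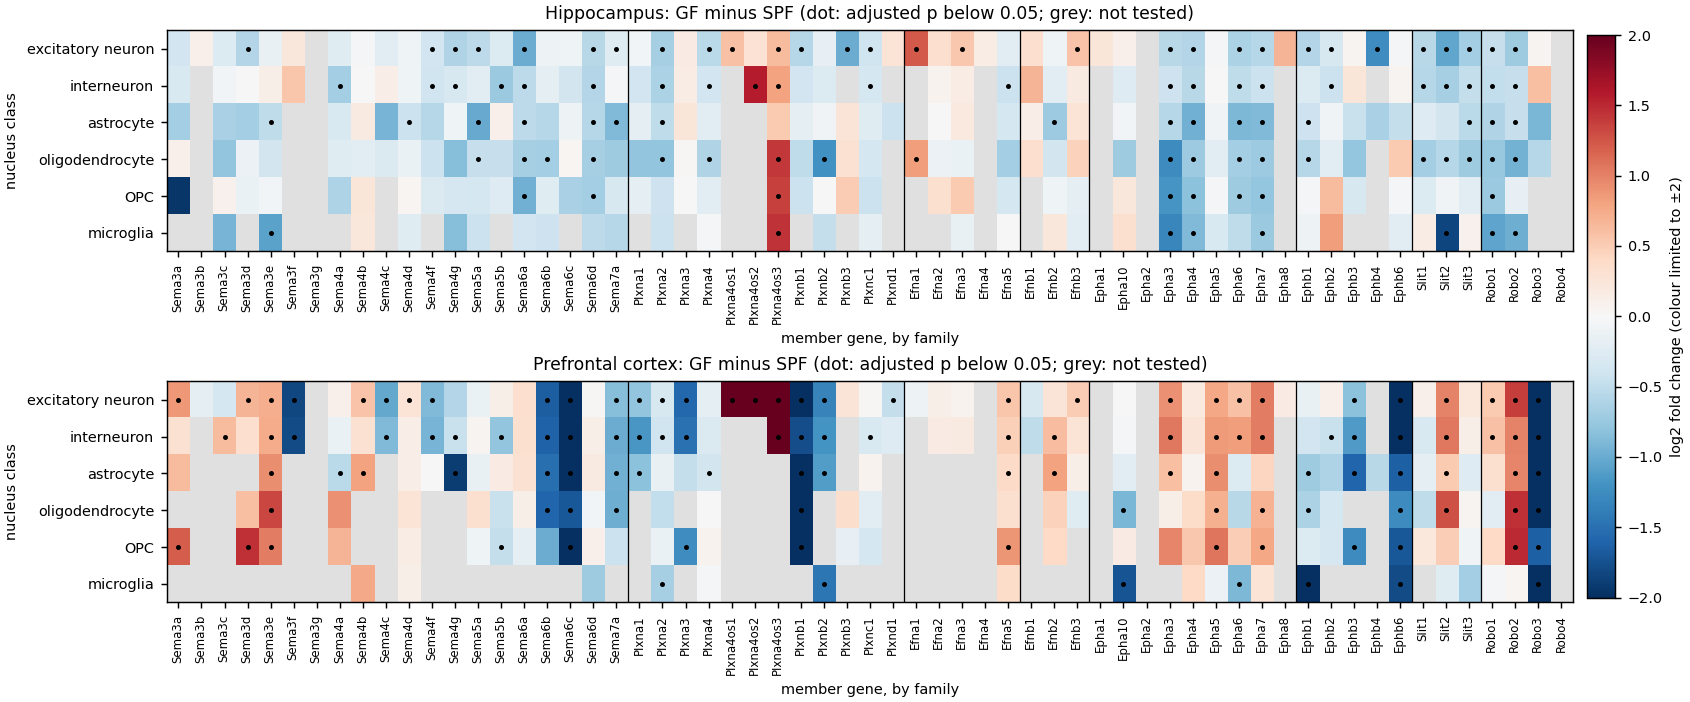
Log2 fold change of GF against SPF mice for each member (x axis, by family) in each of the 6 large classes (y axis), for Hip (top) and PFC (bottom), with a dot where edgeR's adjusted p was below 0.05 and grey where the member was not tested. In Hip the columns of Epha3, Epha4, Epha7 and Robo1 are blue with dots in all 6 classes, and in PFC those of Robo3 and Ephb6 are.

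By family, 23 of 38 EphA pairs fell in GF Hip (median log2 fold change -0.56), 11 of 16 Robo pairs (-0.58) and 11 of 18 Slit pairs (-0.55), with 0 risen in each. Of the EphB pairs 6 of 25 fell and 0 rose, and of the semaphorin pairs 26 of 97 fell and 0 rose. At an unadjusted p under 0.05 edgeR had 1 EphB pair higher and 0 in the other 4 families, and DESeq2 called 0 higher in all 5. In the plexins 12 of 54 pairs fell, and the 7 that rose were the antisense transcripts. The ephrins moved least: 3 of 20 A-type pairs rose and 1 fell, and 1 of 16 B-type pairs rose and 1 fell. By class, pairs that fell made up 24 of 58 in excitatory neurons (5 rose), 20 of 49 in interneurons (2 rose), 16 of 50 in astrocytes (0 rose, also at an unadjusted p under 0.05 and by DESeq2), 17 of 49 in oligodendrocytes (2 rose), 7 of 45 in OPC (1 rose) and 7 of 33 in microglia (1 rose). In the same order 21.8, 18.9, 13.2, 12.3, 6.85 and 4.69% of all genes fell and 25.6, 22, 18.6, 18, 11.3 and 10.3% rose. Over the 58 members tested, 32 fell in at least 1 class (all genes 26.2%), 6 rose in at least 1 (30.4%), and 20 passed the test in none. Those without a call were Efna2, Efna4, Efnb1, Epha1, Epha5, Epha8, Epha10, Ephb3, Ephb6, Plxna1, Plxna3, Plxnd1, Robo3, Sema3a, Sema3b, Sema3c, Sema3f, Sema4b, Sema4c and Sema6c. Epha2, Robo4 and Sema3g were too low to be tested in the 6 classes.

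Epha4, a receptor for ephrins of both types that sits on neurons and astrocytes, fell in all 6 classes of GF Hip, by 0.56 to 0.96 on the log2 scale. In excitatory neurons it stood at 417, 325 and 377 normalized CPM in the 3 GF mice, at 529, 575 and 575 in the SPF mice and at 532, 511 and 580 in the CGF mice. The GF mice lay below all others (GF vs. SPF -0.59 ± 0.09, adjusted p = 0.000787, and GF vs. CGF -0.54 ± 0.09, adjusted p = 0.00111, edgeR). In astrocytes Epha4 was at 175, 121 and 168 in GF, 298, 279 and 328 in SPF and 227, 263 and 315 in CGF mice, without overlap of GF and either group (GF vs. SPF -0.96 ± 0.15, adjusted p = 0.000285). Epha3, Epha6 and Epha7, receptors of the A-type ephrins, were lower in excitatory neurons as well. Epha3 was at 271, 211 and 234 in GF against 370, 323 and 362 in SPF mice (-0.56 ± 0.10, adjusted p = 0.00171). Epha7 was at 616, 461 and 478 against 764, 843 and 693 (-0.56 ± 0.12, adjusted p = 0.00408). Epha6 was at 2769, 2356 and 2102 against 3878, 3996 and 3382 (-0.64 ± 0.11, adjusted p = 0.00134), and no GF mouse of these 3 genes reached an SPF mouse. Their log2 differences of GF from CGF mice were -0.69, -0.74 and -0.74. With the trend with gene length and GC removed, Epha3 kept 2 of 6 Hip calls, Epha7 1 of 6 and Epha6 0 of 5. Epha5, of the same group and as widely expressed, gave 1276, 1040 and 998 in GF and 1165, 1182 and 1075 in SPF mice, with overlap (-0.05, adjusted p = 0.707).

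The ligand Efna5, which binds these receptors, did not pass the test in excitatory neurons. It gave 73.1, 77.9 and 137 normalized CPM in GF, 122, 100 and 114 in SPF and 98.1, 146 and 70.0 in CGF mice, and all 3 groups overlapped (GF vs. SPF -0.22 ± 0.28, adjusted p = 0.547, edgeR). In Hip interneurons, where its level was higher, Efna5 fell (177, 214 and 207 in GF against 270, 241 and 293 in SPF mice, -0.43 ± 0.14, adjusted p = 0.0248). The ligand Efna1 rose in GF excitatory neurons from a low level, at 6.16, 7.19 and 7.34 against 2.34, 4.8 and 1.72 (1.22 ± 0.35, adjusted p = 0.0167). Efna1 was named after its values were seen.

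Among the Slits, the secreted ligands of Robo receptors, Slit2 changed most. In Hip excitatory neurons it was at 118, 137 and 148 normalized CPM in GF, 272, 304 and 253 in SPF and 273, 247 and 239 in CGF mice, so that the highest GF mouse stood well below the lowest of the other groups (GF vs. SPF -1.04 ± 0.10, adjusted p = 7.94e-05, and GF vs. CGF -0.92 ± 0.10, adjusted p = 9.62e-05, edgeR). Slit3 was at 1160, 1083 and 1106 in GF, 1741, 1828 and 1797 in SPF and 2051, 1785 and 1949 in CGF mice (GF vs. SPF -0.68 ± 0.07, adjusted p = 8.51e-05). Their receptors fell with them. Robo2 was at 583, 519 and 524 in GF, 935, 933 and 783 in SPF and 862, 863 and 844 in CGF mice (GF vs. SPF -0.71 ± 0.08, adjusted p = 0.000154). Robo1 was at 265, 276 and 262 in GF against 384, 370 and 351 in SPF and 403, 380 and 435 in CGF mice (-0.46 ± 0.07, adjusted p = 0.000458). No GF mouse overlapped the others for either receptor. Robo1 fell in 6 of 6 classes (log2 -1.05 to -0.46) and Robo2 in 5 of 6. With the trend with gene length and GC removed Robo1 kept 0 of 6 calls, at 0.0225 in excitatory neurons, and Robo2 2 of 5. The excitatory values of Slit2 and Slit3 are not given with that trend removed. Robo3 was low in Hip excitatory neurons and the groups overlapped (22.3, 14.4 and 16.0 in GF, 13.1, 18.8 and 18.7 in SPF mice, 0.06, adjusted p = 0.803).

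**Figure D4:**
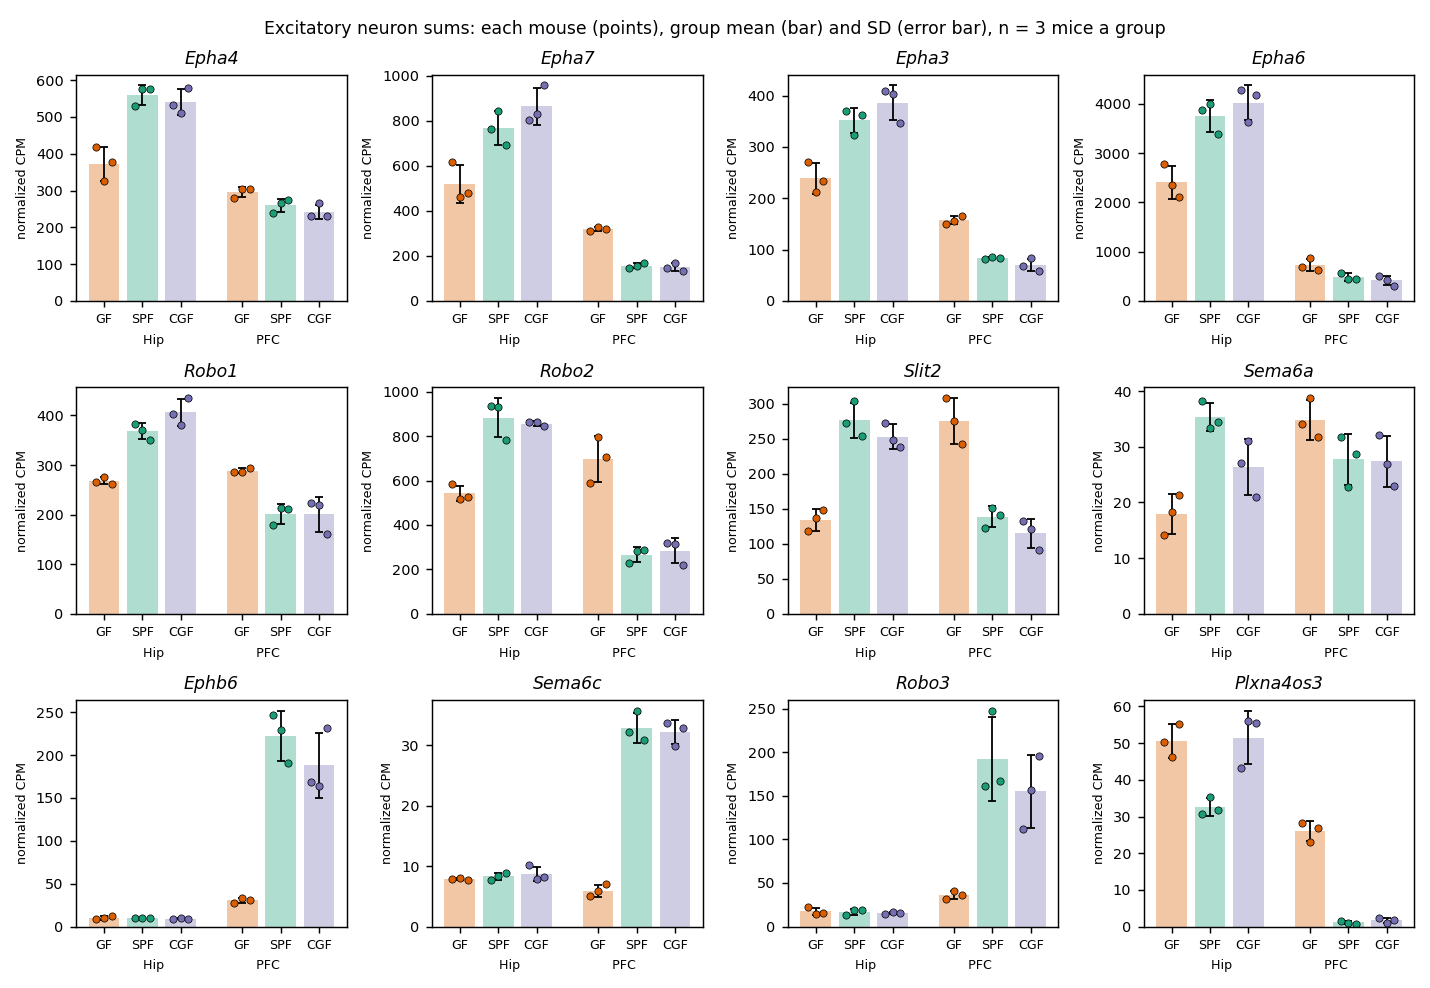
Normalized CPM of 12 members in excitatory neurons, with a point for each mouse, a bar for the group mean and an error bar for the SD (n = 3 mice a group), in Hip and PFC for GF, SPF and CGF mice. For Slit2 the GF mice sit at 118 to 148 in Hip, below both other groups, and at 242 to 308 in PFC, above both.

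The excitatory values were read again within the Hip subclasses, since members differ between them. DG granule nuclei made up 39.2 to 47.0% of the gated excitatory subclasses of GF mice, 36.4 to 49.5% of those of SPF mice and 37.9 to 52.3% of those of CGF mice. The ranges of CA1 and CA3 also overlapped. Slit2 in CA3, its leading subclass, was at 363, 380 and 384 CPM in GF, 496, 559 and 510 in SPF and 569, 472 and 670 in CGF mice. In DG it was at 34.4, 35.9 and 30.9 in GF and 108, 141 and 104 in SPF mice. In both subclasses the 3 GF mice lay below the 3 SPF mice. Epha6 in CA1 was at 4900, 3785 and 3551 in GF and 5322, 6314 and 5175 CPM in SPF mice. Of the 24 members that fell in excitatory neurons, the GF mean was below the SPF mean for 24 in DG, 23 in CA1 and 23 in CA3, which describes the same UMIs and is no second test.

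Semaphorins fell less evenly. Sema6a, a transmembrane ligand that also acts as a receptor, fell in 5 of 6 classes. In excitatory neurons it was low, at 14.1, 18.4 and 21.3 normalized CPM in GF, 38.3, 33.4 and 34.5 in SPF and 27.1, 31 and 21.1 in CGF mice. GF and SPF mice stood apart, while GF and CGF mice overlapped (GF vs. SPF -0.98 ± 0.17, adjusted p = 0.00111, and GF vs. CGF -0.56 ± 0.17, adjusted p = 0.0191, edgeR). Sema5a had the largest call in astrocytes, at 58.6, 43.4 and 44.5 in GF, 69.5, 101 and 120 in SPF and 70.8, 80.8 and 118 in CGF mice, without overlap of GF and the others (GF vs. SPF -1.0 ± 0.22, adjusted p = 0.00347). The receptor Plxna4 was at 662, 632 and 703 in GF and 888, 1046 and 966 in SPF excitatory neurons (-0.54 ± 0.08, adjusted p = 0.000636). Ephb4 gave the largest fall in excitatory neurons (-1.24 ± 0.45, adjusted p = 0.0438) from 81 UMIs in all 9 mice, at 0.107, 0.11 and 0.215 in GF and 0.246, 0.245 and 0.542 in SPF mice. That level is near zero in every mouse, and the call was lost without GF mouse 5 or 6 or CGF mouse 17 or 18 (log2 -1.24 to -1.05).

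Among the glial classes, Slit2 had the largest call of Hip microglia, at 13.2, 32.2 and 30.2 normalized CPM in GF, 98.2, 82.2 and 93.1 in SPF and 82.6, 39.9 and 134 in CGF mice (GF vs. SPF -1.84 ± 0.37, adjusted p = 0.00289, and GF vs. CGF -1.77 ± 0.38, adjusted p = 0.00296, edgeR). All GF microglia sums lay below the others. Epha3 in oligodendrocytes was at 52.4, 34.7 and 35.3 in GF against 88.0, 91.1 and 110 in SPF mice (-1.25 ± 0.17, adjusted p = 0.000128), again apart. In the same comparison Slc17a7 was lower in GF microglia by 0.74 (adjusted p = 0.00776) and in GF oligodendrocytes by 0.46 (adjusted p = 0.0348), at -0.38 in astrocytes (adjusted p = 0.0813) and at -0.50 in OPC (adjusted p = 0.0519), all log2. In excitatory neurons Slc17a7 was 0.36 higher (adjusted p = 0.00707) and Snap25, a synaptic gene of all neurons, 0.29 lower (adjusted p = 0.00432). Snap25 was also lower in GF microglia by 0.51 (adjusted p = 0.0453) and in GF oligodendrocytes by 0.48 (adjusted p = 0.0251, edgeR). It stood at -0.33 in astrocytes (adjusted p = 0.0919) and at -0.36 in OPC (adjusted p = 0.0935). The summed level of all 8 excitatory gate markers, each detected in every Hip sum, ran in microglia from 738 to 974 CPM in GF and 1000.5 to 1281 CPM in SPF mice, without overlap. In astrocytes (658 to 710 against 674 to 970 CPM), OPC (868 to 1155 against 933 to 1120 CPM) and oligodendrocytes (612 to 867 against 755 to 1014 CPM) the sums overlapped. The part of neuronal RNA in the glial calls was not tested.

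The antisense transcript Plxna4os3 went the other way from Plxna4. It rose in 5 of 6 classes of GF Hip, by 0.64 to 1.44 on the log2 scale. In microglia it was at 46.2, 55.1 and 54.7 normalized CPM in GF, 15.6, 16.1 and 24.6 in SPF and 15.2, 64.3 and 31.7 in CGF mice, so that GF and SPF mice stood apart while the CGF mice spanned both (GF vs. SPF 1.44 ± 0.38, adjusted p = 0.016, edgeR). In OPC it was at 31.1, 16.4 and 18 in GF and 8.35, 8.18 and 8.41 in SPF mice (1.37 ± 0.36, adjusted p = 0.0184), and in oligodendrocytes at 7.08, 8.68 and 14.4 against 4.65, 3.62 and 3.03 (1.41 ± 0.45, adjusted p = 0.028). The OPC call was lost without GF mouse 5 or SPF mouse 30 (log2 1.03 and 1.37), the oligodendrocyte call without GF mouse 6 or 7 or SPF mouse 31 or 32 (1.08 to 1.5), and the microglia call without GF mouse 6 or SPF mouse 30 or 31 (1.27 to 1.37). Plxna4os2 had the largest call in interneurons (2.72, 2.41 and 2.96 in GF against 1.20, 0.441 and 0.948 in SPF mice), at 13 to 15 UMIs in GF and 2 to 7 in SPF mice. It could thus pass the filter on low counts through the GF mice alone, and no fold or p-value is given. The strand setting of the counting is not given in the sources used here, and without strand a read of Plxna4 and of its antisense partners cannot be told apart. The 2778 genes annotated as antisense took 1.74 to 1.81% of the UMIs of GF Hip libraries, 1.15 to 1.34% in SPF and 1.37 to 1.51% in CGF libraries, and the part of this shift in the Plxna4os values was not tested.

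The comparison of CGF with SPF mice asked how far colonized mice still differed from mice with a microbiota from the start. Of the 284 Hip pairs, 1 was higher in CGF than SPF and 0 lower by edgeR (all genes 0.159% higher and 0.115% lower), 31 had an unadjusted p under 0.05, and DESeq2 called 3 higher and 0 lower. The 1 pair was Plxna4os3 in excitatory neurons, at 43.2, 56.0 and 55.4 normalized CPM in CGF against 30.6, 35.2 and 31.8 in SPF mice (0.66 ± 0.11, adjusted p = 0.0341). That call was lost without any 1 of GF mice 5, 6 and 7, SPF mice 30 and 31 and CGF mice 18 and 19, and the GF mice (50.3, 46.2 and 55.3) overlapped the CGF mice (GF vs. CGF -0.03, adjusted p = 0.864). GF against CGF mice, a comparison that uses the same GF libraries as GF against SPF, gave 82 pairs lower and 7 higher of 284 (all genes 15.8% lower and 19.5% higher). In the PFC 0 of 234 pairs differed between CGF and SPF mice in either direction by edgeR (all genes 0.0991% higher and 0.101% lower), with 20 at an unadjusted p under 0.05 and 1 higher and 0 lower by DESeq2. With 3 mice a group, differences could be missed. In Hip sums simulated for GF against SPF mice the test recovered 63% of genes changed 2-fold in excitatory neurons and 38% in microglia, and CGF against SPF was not simulated.

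In the PFC the GF mice had lower Robo3, Ephb6, Sema6b, Sema6c and Plxnb1 and higher Robo2, Epha5, Sema3e and Slit2 than the SPF mice. Of 234 tested pairs 68 were lower and 49 higher in GF mice, beside 23.9% lower and 24.5% higher among all gene-class pairs, and the median log2 fold change was -0.02. GF against CGF mice gave 66 lower and 55 higher (all genes 23.8% and 24.7%). By family, 14 of 36 EphA pairs rose and 3 fell, 7 of 18 Robo pairs rose and 6 fell, 4 of 17 Slit pairs rose and 0 fell, and 4 of 11 A-type and 3 of 11 B-type ephrin pairs rose with 0 fallen. EphB receptors fell in 14 of 22 pairs and rose in 0. At an unadjusted p under 0.05 edgeR had 0 EphB and 0 A-type ephrin pairs, 1 B-type ephrin pair and 1 Slit pair in the direction with no call, and DESeq2 called 0 there. Plexin pairs fell in 21 of 42, and the 4 that rose were antisense transcripts. Among these, SPF mice held 1 to 4 UMIs of Plxna4os1 and 2 to 7 of Plxna4os2 in excitatory neurons. They held 0 to 6 of Plxna4os3 in interneurons. Such pairs could pass the filter on low counts through the GF mice alone. Of the semaphorin pairs 24 of 77 fell and 13 rose. Over the 56 members tested, 24 fell in at least 1 class (all genes 35.8%), 19 rose in at least 1 (38.5%), Epha6 being in both counts, and 14 passed the test in none (Efna1, Efna2, Efna3, Efnb1, Epha4, Epha8, Ephb4, Plxnb3, Sema3b, Sema5a, Sema6a, Sema6d, Slit1 and Slit3). Efna4, Epha1, Epha2, Robo4 and Sema3g were too low to be tested.

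Ephb6 fell in all 6 classes of GF PFC. In excitatory neurons it was at 27.5, 32.9 and 31.1 normalized CPM in GF, 247, 229 and 191 in SPF and 169, 164 and 231 in CGF mice, and the GF mice were far below both (GF vs. SPF -2.86 ± 0.15, adjusted p = 1.97e-08, and GF vs. CGF -2.62 ± 0.15, adjusted p = 3.98e-08, edgeR). Robo3 fell in 6 of 6 classes, by 1.63 to 3.08. In excitatory neurons it gave 32.1, 40.8 and 35.8 in GF, 161, 247 and 167 in SPF and 112, 157 and 196 in CGF mice (GF vs. SPF -2.41 ± 0.21, adjusted p = 1.14e-06). In oligodendrocytes it gave 4.84, 14.5 and 8.48 in GF, 63.3, 96.0 and 72.9 in SPF and 47.1, 54.5 and 85.7 in CGF mice (-3.08 ± 0.35, adjusted p = 6.91e-08). In both classes GF and the other groups did not overlap. Robo3 also had the largest call in astrocytes (4.98, 5.72 and 7.15 in GF against 31.2, 54.6 and 21.8 in SPF mice, -2.52 ± 0.36, adjusted p = 5.43e-06, edgeR) and in microglia (8.89, 13.4 and 11.3 against 53.9, 61.9 and 50.2). The microglia sums were small, from 125 to 255 nuclei per SPF library with medians of 664 to 703 UMIs. Robo3 in microglia could thus pass the filter on low counts through the SPF and CGF mice alone, and no fold or p-value is given. Neuronal RNA in PFC glia moved as well: Slc17a7 was lower in GF than SPF mice by 0.62 in OPC, 0.54 in astrocytes and 0.52 in oligodendrocytes (log2, adjusted p = 0.00361, 0.00479 and 0.0157, edgeR), while Snap25 was higher there by 0.60, 0.64 and 0.51 (adjusted p = 0.0183, 0.00726 and 0.0477). In microglia they stood at -0.36 and 0.52 (adjusted p = 0.15 and 0.0718), and in excitatory neurons themselves at -0.77 and 0.57 (adjusted p = 5.41e-05 and 0.0116). In interneurons they stood at -1.02 and 0.22 (adjusted p = 4.08e-06 and 0.245, edgeR), and the part of RNA from other neurons in interneuron values was not tested. The summed excitatory markers overlapped between GF and SPF mice in OPC (1219 to 1515 against 1243 to 1390 CPM), astrocytes (860 to 938 against 873 to 1092 CPM) and oligodendrocytes (945 to 1247 against 1133 to 1358 CPM), and were lower in GF microglia (982 to 1224 against 1346 to 1440 CPM). The part of neuronal RNA in the glial values of Robo3 and of the other neuronal members was not tested. The PFC subclasses took different shares of the gated excitatory nuclei of GF and SPF mice: 20.8 to 25.1% against 13.8 to 16.3% in the middle layers, 14.7 to 22.1% against 25.4 to 27.3% in layer 6 and 10.4 to 12.3% against 9.16 to 9.55% in layer 5, without overlap, and 38.4 to 45.4% against 43.3 to 44.9% in upper layers. Read within upper layer neurons, Robo3 was at 53.2, 62.7 and 57.2 CPM in GF and 271, 407 and 300.1 CPM in SPF mice.

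Of the class 6 semaphorins, Sema6c fell in 5 of 5 tested PFC classes and Sema6b in 4 of 5. Sema6c in excitatory neurons was at 5.02, 5.82 and 6.96 normalized CPM in GF, 32.2, 35.6 and 30.8 in SPF and 33.7, 29.9 and 32.8 in CGF mice (GF vs. SPF -2.47 ± 0.13, adjusted p = 2.02e-08, edgeR). In interneurons, its leading class, Sema6c was at 18.7, 23.9 and 21.4 in GF, 143, 119 and 110 in SPF and 95.2, 106 and 131 in CGF mice (-2.53 ± 0.15, adjusted p = 4.95e-09). Sema6b in excitatory neurons was at 18.2, 20.7 and 19.9 against 57.0, 68.5 and 59.5 in SPF mice (-1.65 ± 0.10, adjusted p = 7.25e-08). GF and SPF mice were apart in each. In OPC Sema6c had the largest call (9.04, 7.41 and 6.88 in GF, 42.6, 53.6 and 60.6 in SPF and 87.3, 28.9 and 50.6 in CGF mice, -2.75 ± 0.42, adjusted p = 2.37e-05). The astrocyte receptor Plxnb1 was at 55.8, 76.7 and 70.3 in GF, 307, 271 and 237 in SPF and 238, 209 and 267 in CGF astrocytes (-2.0 ± 0.16, adjusted p = 5.33e-10), with GF mice below all others.

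The risen members were mostly receptors and ligands of long genes. Robo2 in PFC excitatory neurons was at 587, 794 and 707 normalized CPM in GF, 227, 285 and 286 in SPF and 320, 314 and 218 in CGF mice (GF vs. SPF 1.39 ± 0.16, adjusted p = 1.39e-05, edgeR). Epha5 was at 924, 952 and 875 in GF against 568, 528 and 520 in SPF and 533, 467 and 614 in CGF mice (0.77 ± 0.11, adjusted p = 6.69e-05). Sema3e, the secreted ligand of Plxnd1, was at 72.8, 53.4 and 71.9 against 32.3, 39.1 and 48.6 (0.72 ± 0.15, adjusted p = 0.00127). For these 3 genes every GF mouse was above every SPF mouse. Slit2 was at 308, 275 and 242 in GF against 122, 151 and 142 in SPF mice (0.99 ± 0.14, adjusted p = 6.27e-05), and Epha7 at 309, 328 and 318 against 147, 155 and 167 (1.03 ± 0.10, adjusted p = 2.22e-06). The ligand Efna5 was at 308, 411 and 366 in GF and 180, 266 and 292 in SPF mice (0.56 ± 0.17, adjusted p = 0.012). Epha4 did not pass the test in any PFC class between GF and SPF mice, with 279, 304 and 305 against 239, 265 and 275 in excitatory neurons (0.19 ± 0.09, adjusted p = 0.0954), while GF against CGF mice (230, 265 and 230) did there (0.29 ± 0.09, adjusted p = 0.0164). In OPC the ligand Sema3d was at 269, 282 and 241 in GF and 111, 69.7 and 99.9 in SPF mice (1.47 ± 0.19, adjusted p = 3.3e-06, edgeR).

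Plxna4os3 was far higher in GF than SPF neurons of the PFC, from few UMIs in the SPF and CGF mice. It was at 28.3, 22.9 and 26.8 normalized CPM in GF excitatory neurons, 1.51, 0.984 and 0.822 in SPF and 2.36, 1.01 and 1.83 in CGF mice (GF vs. SPF 4.57 ± 0.26, adjusted p = 3.9e-08, and GF vs. CGF 3.91 ± 0.24, adjusted p = 8.75e-08, edgeR). These levels rest on 1178, 1012 and 1298 UMIs in GF and 25, 21 and 16 in SPF mice. In interneurons it was at 43.3, 41.1 and 36.2 in GF, 0.832, 2.16 and 0 in SPF and 2.31, 2.67 and 2.58 in CGF mice. There the SPF mice held 2, 6 and 0 UMIs and the CGF mice 9, 8 and 7, against 289 to 304 in GF mice. The gene could thus pass the filter on low counts through the GF mice alone, and no fold or p-value is given. The host gene Plxna4 overlapped between GF and SPF mice in excitatory neurons (403, 468 and 487 against 469, 533 and 554, -0.20 ± 0.11, adjusted p = 0.124). In the PFC all antisense genes together took 1.55 to 1.79% of the UMIs of GF libraries and 0.458 to 0.504% of SPF and 0.494 to 0.561% of CGF libraries. Nuclei of GF mice held medians of 6796 to 7427 UMIs per library, against 3037 to 3208 (SPF) and 2353 to 3036 (CGF), and the part of these library differences in the antisense values cannot be told apart from the group.

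The difference of the GF effect between regions was tested directly, in a fit of all 18 libraries. Of 296 pairs tested, 113 had a different GF-SPF effect in Hip and PFC, beside 31.5% of all gene-class pairs: in 69 the effect was lower in Hip and in 44 it was higher. By gene, it was lower in Hip in at least 1 class for 26 of 58 members (all genes 32.8%) and higher for 18 (25.8%). Shares of all pairs by direction are not given. EphA pairs were lower in Hip in 24 of 38 (higher in 1), Robo in 9 of 18 (higher in 5) and Slit in 5 of 18 (higher in 0). EphB pairs were higher in Hip in 9 of 25 (lower in 1). These family counts were not tested against the 31.5% of all pairs, which takes both directions together. In excitatory neurons the log2 differences of the effect were -2.15 ± 0.20 for Robo2 (adjusted p = 1.05e-07, edgeR), -2.09 ± 0.19 for Slit2 (7.39e-08) and -4.0 ± 0.28 for Plxna4os3 (4.23e-09). They were 2.79 ± 0.21 for Ephb6 (1.45e-08), 2.33 ± 0.18 for Sema6c (1.2e-08) and 1.49 ± 0.13 for Sema6b (6.52e-08). In 22 of the 231 member-class pairs tested in both regions, from 10 members, GF was lower than SPF in Hip, higher in PFC and the effects differed, beside 2.82% of all such pairs. The members were Efna5, Efnb2, Epha3, Epha6, Epha7, Robo1, Robo2, Sema3d, Sema3e and Slit2. The opposite, higher in Hip and lower in PFC, held for 0 of 231, beside 3.36% of all pairs. The fit of all 18 libraries was not run with the trend with gene length and GC content removed.

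**Figure D5:**
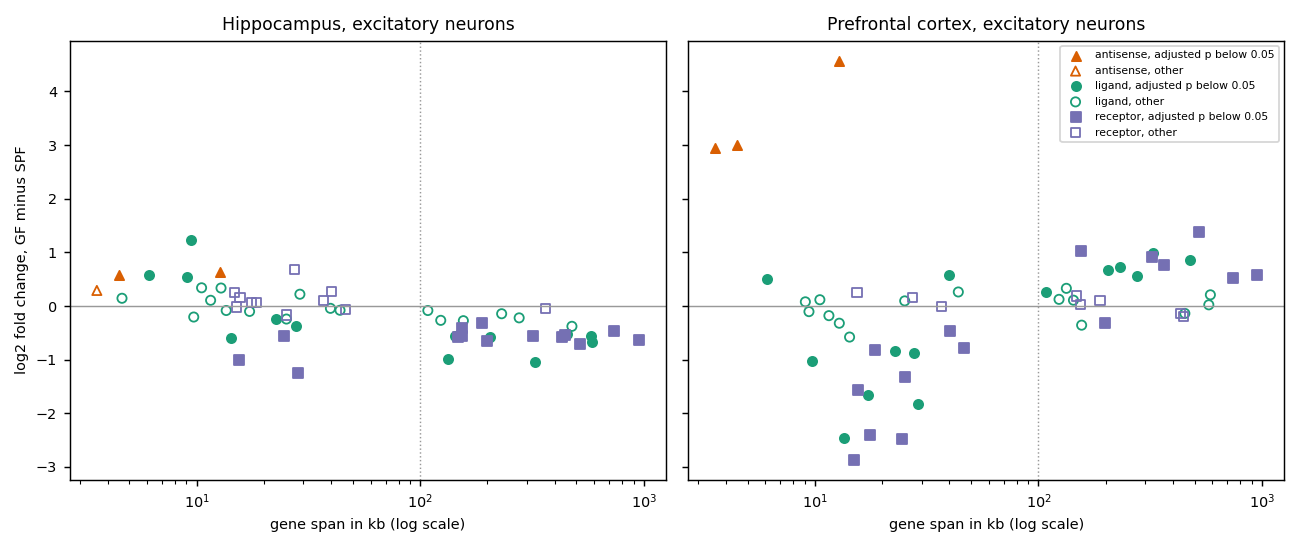
Log2 fold change of GF against SPF mice in excitatory neurons (y axis) by gene span in kb (x axis, log scale) for each tested member, filled where edgeR's adjusted p was below 0.05, with circles for ligands, squares for receptors, triangles for antisense transcripts and a dotted line at 100 kb. The members that fell in PFC lie mostly left of the line, and those to its right were mostly lower in Hip and higher in PFC.

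Both patterns moved with gene span, as the plot of fold change by span shows. In Hip 78 of the 147 pairs from members of 100 kb or longer were lower in GF mice (53.1%, all genes of that span 35.2%) and 0 were higher by edgeR or DESeq2, with 1 higher at an unadjusted p under 0.05. Of the 137 pairs from shorter members 13 were lower (9.49%, all shorter genes 9.72%) and 11 higher (8.03%, 22.1%). In PFC 40 of 134 pairs of long members were higher (29.9%, all long genes 21.5%), and 56 of 100 pairs of shorter members were lower (56.0%, 25.3%). When the fold changes of all genes were freed of their trend with gene length and GC content, Epha4 kept 5 of its 6 Hip calls and Sema6a 2 of 5, beside the losses of Epha3, Epha6, Epha7, Robo1 and Robo2 given above. Slit2 in Hip microglia and Ephb4 in Hip excitatory neurons stayed called (-1.5 and -1.28). Sema5a in Hip astrocytes (-0.64) and Plxna4os2 in Hip interneurons did not, and Plxna4os3 kept 2 of its 5 Hip calls. In PFC the calls held more often: Robo3 6 of 6, Ephb6 5 of 6, Plxnb1 5 of 5, Robo2 5 of 5, Sema6b 4 of 4, Sema6c 4 of 5, Epha5 4 of 5 and Sema3e 3 of 5.

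Comparing the regions within each group showed which members are regional in all mice. In GF mice 40 of 296 pairs were higher in Hip and 40 lower (all genes 5.91% and 6.4%), in SPF mice 101 and 76 (23.6% and 21.6%), and in CGF mice 98 and 83 (24% and 23.2%). In all 3 groups 35 pairs were higher in Hip (all genes 3.26%) and 21 lower (2.89%). The 35 included 16 EphA pairs of 5 members and 5 Slit pairs, and the 21 included 6 EphB pairs. In excitatory neurons Epha6 averaged 2614 ± 332 CPM in Hip against 674 ± 105 in PFC of GF mice, 3645 ± 257 against 502 ± 93.1 in SPF mice and 3806 ± 349 against 430.3 ± 103 in CGF mice (log2 1.82, 3.1 and 3.42, adjusted p = 2.87e-07, 1.02e-10 and 3.41e-11, edgeR). Ephb6 was the other way, at 11 ± 2.25 against 28.3 ± 2.19 CPM in GF, 9.95 ± 0.42 against 229 ± 38.3 in SPF and 8.85 ± 0.56 against 198 ± 47.3 in CGF mice (-1.51, -4.29 and -4.20). Robo3 was lower in Hip as well (-0.95, -3.36 and -3.20). The antisense transcripts were higher in Hip in each group, Plxna4os3 by 1.05, 5.05 and 5.02. Plxna4os1 and Plxna4os2 were higher by 0.97 and 1.15 in GF mice, while in the PFC of SPF and CGF mice they held 0 to 4 and 2 to 7 UMIs per library, too few to size the fold. Epha4 was higher in Hip (0.43, 1.26 and 1.29) and its ligand Efna5 lower (-1.82, -0.99 and -1.0), in the order GF, SPF and CGF. The 2 regions also differed in UMIs per nucleus and mitochondrial share in each group of mice, as given above. In GF mice Hip nuclei held fewer UMIs and a higher mitochondrial share than PFC nuclei, and in SPF and CGF mice the reverse. Within a group those differences cannot be told apart from the region, and their part in the regional calls was not tested.

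Other genes of the pathway were read from lists chosen with the members. The shares of all gene-class pairs to set beside them are 14.3% lower and 18.8% higher in GF Hip and 23.9% and 24.5% in GF PFC. Among all genes of 100 kb or longer they are 35.2% lower and 3.59% higher in GF Hip and 18.8% and 21.5% in GF PFC. The lists were not split by gene span. Of the 6 co-receptors, which include the neuropilins that carry class 3 semaphorins to plexins, 17 of 36 pairs fell in GF Hip and 0 rose, and in PFC 9 of 33 fell and 4 rose. The netrin system, a parallel guidance pathway with the receptors Dcc, Neo1 and the Unc5 genes, fell in 31 of 74 Hip pairs and rose in 1, and in PFC it rose in 21 of 66 and fell in 9. Intracellular effectors fell in 32 of 163 Hip pairs and rose in 18, and in PFC 30 of 146 rose and 41 fell. In excitatory neurons the log2 GF-SPF difference of Nrp1 was -0.57 in Hip (adjusted p = 0.00104, edgeR), that of Dcc -0.57 in Hip (0.000738) and 1.10 in PFC (3.2e-05), and that of Unc5d -0.61 in Hip (0.0126) and 0.16 in PFC (0.352). Cfl1, which severs actin filaments, was higher in GF Hip (1.01, 0.00474) and at -0.15 in PFC (0.27). In the other 5 classes it was higher in both regions, by 0.79 to 1.07 in Hip and 0.36 to 1.34 in PFC.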

How the data were processed

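Single-nucleus RNA of frozen Hip and PFC was sequenced on the 10x platform. Per the submitters' notes and methods, the authors trimmed reads with fastp 0.18.0, aligned them to mm10 with Cell Ranger 3.1.0 and deposited UMI counts per gene and nucleus, 1 matrix per library. A further matrix, aggregated and thinned to equal depth, was not used. Nuclei with at least 200 genes and at most 10% mitochondrial UMIs were kept, as in the study's filter, and doublets were not called. A nucleus was given the class with a posterior of at least 0.95 from a naive Bayes score over marker genes, if it held at least 5 marker UMIs. A further marker used to check the classes is not reported here. Counts were summed per library and class. Groups were compared with edgeR 4.0.16 (filterByExpr, TMM, quasi-likelihood F test, 3 groups in 1 fit) in R 4.3.3, adjusted by Benjamini-Hochberg over all genes of a class at 0.05. Normalized CPM uses TMM library sizes. SE is the log2 fold change divided by the root of F. DESeq2 1.42.0 was an alternative, as were other filters, scalings, gates, depths, left-out mice and removal of the trend with gene length and GC (lowess, span 0.3). Group means rest on 3 mice, and p-values set a difference against a spread between mice that all groups of a fit share. The 2 regions came from the same animals, so mouse numbers pair them. Deviations from the group mean correlated at a median of 0.0949 between regions of 1 mouse and -0.0519 between mice, and in excitatory neurons at 0.161 to 0.325 (median 0.205) and -0.22 to -0.0516. On simulated Hip sums of GF against SPF mice edgeR recovered 63% of 2-fold and 39% of 1.5-fold changes in excitatory neurons. In microglia it recovered 38% and 5%. For the difference between regions it recovered 53% and 9% in excitatory neurons and 6% and 0% in microglia. Gene spans came from GENCODE vM21 (GRCm38).

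The members and lists were chosen with earlier results of these data known. Members named with values were, per region, the 8 called between GF and SPF in most classes in 1 direction, the largest call of each class, the 6 with the strongest regional difference of effect, the 6 with the largest Hip-PFC fold called alike in all groups, the 3 farthest above the other classes per class, the highest per kb of each family, Epha4 and Efna5. Others named were chosen after their values were seen.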

Additional observations from a re-analysis of the deposited data

Results flagged for a closer look

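The GF-SPF effect differed between Hip and PFC in at least 1 class for 44 of 58 members by the direct test of the difference in edgeR (adjusted p below 0.05, all genes 58.1%), lower in Hip for 26 (32.8%) and higher for 18 (25.8%). Given here are 17 of the members named by the rules on group and regional effects, each in its class of smallest adjusted p, as the log2 GF-SPF difference in Hip minus that in PFC. Among these, the value was negative in excitatory neurons, at -1.54 for Epha3, -0.83 for Epha4, -0.87 for Epha5, -1.65 for Epha7, -1.04 for Robo1, -2.15 for Robo2 and -2.09 for Slit2, and in interneurons at -1.36 for Epha6. The semaphorins Sema6a (-1.37) and Sema3e (-0.92) went the same way in excitatory neurons. The antisense transcript Plxna4os3 stood at -4.0 in excitatory neurons, where the SPF mice held 16 to 25 of its UMIs in the PFC. That size is thus uncertain. For Plxna4os2 the fit gave -2.72 in excitatory neurons. There the SPF mice held 2 to 7 of its UMIs in the PFC, too few to size the fold, and nothing is concluded from that value. The effect was higher in Hip than PFC for Ephb6 (2.79), Robo3 (2.41), Sema6c (2.33) and Sema6b (1.49) in excitatory neurons and for Plxnb1 in astrocytes (1.84). The GF libraries of the PFC also differed from the SPF and CGF libraries in depth and mitochondrial share, as given in the report, and the part of this in the regional difference cannot be told apart from the group. The regional difference was not fitted with the trend with gene length and GC content removed. With that trend removed within Hip, Robo1 kept 0 of 6 GF-SPF calls, Epha6 0 of 5, Epha7 1 of 6, Epha3 2 of 6, Robo2 2 of 5, Sema6a 2 of 5 and Epha4 5 of 6.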

How the results depend on the processing

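Removing the trend with gene length and GC content moved the Hip counts most: 36 member-class pairs were then lower in GF than SPF mice (91 without the correction), 5 higher (11), and 27 lower in GF than CGF mice (82). Robo1 in Hip excitatory neurons reversed to 0.0225 (log2), and in the PFC 1 pair became higher in CGF than SPF mice. CGF against SPF counts moved by few pairs: in Hip 3 pairs were higher by DESeq2 and 3 with no filter on low counts, against 0 with only the 2 groups compared and 0 with the stricter gate, and in PFC DESeq2 gave 1 higher and the fit with no filter 1 lower. The cause was not tested. Over single mice left out, pairs in Hip ran from 5 to 12 higher and 68 to 91 lower in GF than SPF, 4 to 10 higher and 68 to 88 lower in GF than CGF, and 0 to 1 higher and 0 to 0 lower in CGF than SPF. In PFC they ran from 38 to 53 higher and 54 to 71 lower, 45 to 56 higher and 58 to 69 lower, and 0 to 0 higher and 0 to 2 lower. The low Hip count of 5 higher was without SPF mouse 30, 7 without GF mouse 6, which also gave 4 for GF over CGF, and the 2 in PFC were without CGF mouse 18. Leaving out 1 mouse ended some calls of single pairs (log2 GF-SPF without that mouse). In Hip these were Epha3 in astrocytes (GF 6 or 7, SPF 30 or 32, -0.61 to -0.41) and OPC (GF 5, 6 or 7, SPF 30 or 32, -1.33 to -0.75), Epha7 in microglia (GF 6 or 7, any SPF mouse, CGF 18 or 19, -0.87 to -0.49), and in astrocytes Robo1 (GF 5, SPF 30, -0.54 to -0.45) and Sema6a (GF 5 or 6, SPF 30 or 31, -0.53 to -0.44). In PFC they were Sema3e in astrocytes (GF 6, SPF 31, 0.77) and OPC (GF 6, any SPF mouse, 0.65 to 1.20) and Sema6c in oligodendrocytes (SPF 30 or 31, -1.69 to -1.45). The Hip-PFC call of Robo3 in GF mice was lost without GF 6 (-0.73). With the mouse as a replicate block, 125 pairs had a different GF effect in Hip and PFC (113 without the block), and 45 and 49 pairs were higher and lower in Hip of GF mice. None of these counts changed by over 1.5 times with the block. The 12 single values checked with it kept their direction and side of the threshold. Over all checks of 1 value under 1 alternative, 1523 kept the direction and the side of the threshold and 95 fell short of it.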
